A study of Mus musculus with 8 samples.

Results

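Zic1, Zic2 and Zic4 encode zinc finger transcription factors named for their place of discovery, the cerebellum. They were followed over 8 arrays of mouse thalamic tissue, as 3 of 19938 genes with a probe set of a single symbol. For each gene the probe set of highest mean level was used, which is 10595695 for Zic1, 10417176 for Zic2 and 10587782 for Zic4. The 3 genes were selected on measured values, because Zic1 and Zic2 were among the genes of smallest p in an earlier comparison of acupoint with MPTP mice on these arrays. Their values in that comparison are therefore a description, and no test of them is given. A further family member, Zic5, had 2 probe sets.

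The arrays hold RNA from 4 groups of 2 male C57BL/6 mice, an inbred strain. Per the growth protocol the mice were 6 weeks old at the start, before the weeks of injections, and their stage is labelled adult. Acupoint mice received MPTP and were needled by hand at the acupoints GB34 and LR3. Hip-needled mice received MPTP and were needled at non-acupoints on both hips. MPTP mice received MPTP and no needling, and control mice received saline without needling. MPTP is a neurotoxin that kills dopamine neurons and serves as a model of Parkinson's disease. It was given at 20 mg/kg every 24 hr for 4 weeks, and saline once daily for as long. Needling took place in 14 sessions at 48 hr intervals. Each array holds the bilateral thalamic tissue of a single mouse, so a change in the number of cells of a type and a change in RNA per cell cannot be told apart. No group was needled without MPTP, so needling is seen only on top of the toxin.

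Zic factors bind DNA through a block of C2H2 zinc fingers that resembles that of the Gli factors, the transcription factors of the Hedgehog pathway. In the embryo they act in the dorsal neural tube, the roof of the forebrain and the cerebellar granule cell lineage, and Zic2 is also known for its role in the crossing of retinal axons at the optic chiasm. In the adult brain Zic genes stay on in granule cells of the cerebellum, in meningeal cells and in some neurons of the forebrain and midbrain. Zic1 and Zic4 are neighbours on mouse chromosome 9, and Zic5 and Zic2 are neighbours on chromosome 14.

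The promoters of Zic1 and Zic4 are shown because these neighbours point away from each other, with 3204 bases between their annotated starts, and can be set beside how far their RNA levels moved together. Each line gives the 250 bases before the start from RefSeq (GRCm38.p6), 5′ to 3′ on the gene's own strand, and the table held 2 of the 3 genes. The first lies at chr9:91365769-91366018 on the minus strand and the second at chr9:91368722-91368971 on the plus strand. Capitals mark exact matches, on either strand, to CCAAT (bound by the factor NF-Y), to GGGCGG (the box bound by Sp factors, or GC box), to CACGTG (an E-box of helix-loop-helix factors), to TATAAA (the motif of the core promoter, or TATA box), to CAGCAGG (the core that Zic factors bind) or to GACCACCCA (the site that Gli factors bind).
Zic1: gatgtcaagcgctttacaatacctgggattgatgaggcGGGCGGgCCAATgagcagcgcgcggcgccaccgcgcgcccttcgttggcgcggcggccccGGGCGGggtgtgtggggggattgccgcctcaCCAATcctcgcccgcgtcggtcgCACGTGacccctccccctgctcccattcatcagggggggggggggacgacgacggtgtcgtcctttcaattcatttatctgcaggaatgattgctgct
Zic4: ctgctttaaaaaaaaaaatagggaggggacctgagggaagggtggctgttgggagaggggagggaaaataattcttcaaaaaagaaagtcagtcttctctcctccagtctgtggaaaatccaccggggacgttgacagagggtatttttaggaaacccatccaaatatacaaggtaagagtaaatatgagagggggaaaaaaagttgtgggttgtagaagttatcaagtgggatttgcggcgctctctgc
The Zic1 window held 2 CCAAT matches, 2 GC boxes and 1 E-box, none of them overlapping another. At least 1 CCAAT match is present in 33.8% of the 32851 mouse promoter windows of this length, a GC box in 32.7% and an E-box in 6.02%. Neither window held the TATA box, the Zic core or the Gli site, which occur in 12.4%, 8.44% and 0.225% of all windows. The Zic4 window held none of the 6 motifs. The bases G and C made up 66.0% of the Zic1 window and 44.4% of the Zic4 window, against a median of 52.4% over all windows.

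The arrays were comparable in overall brightness, with median log2 levels between 6.18 and 6.29. MPTP mouse 1 and hip-needled mouse 1 stood apart. Their Pearson r over all probe sets was 0.987 for the pair itself, but only 0.952 to 0.969 against the remaining 6 arrays. Among those 6 it was 0.984 to 0.991. Values without these 2 arrays are given as the 6-array values, in which MPTP and hip-needled mice are represented by 1 array each. All 15 markers of thalamic projection neurons passed the brightness filter (mean log2 level above 5.63), as did 11 of 11 choroid plexus, 11 of 12 habenula and 9 of 10 dopaminergic genes, so passing it does not single out the thalamus. Prkcd, a protein kinase of relay neurons, averaged 11.52 over the 8 arrays, and Slc17a6, the vesicular glutamate transporter of these cells, lay at group means of 11.19 to 11.68. The 2 mice of a group are the replicates, so p-values rest on the spread within 4 pairs of mice, and precision is limited by how few arrays there are.

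Zic1 was highest in acupoint mice, at log2 levels of 10.45 and 10.54. Hip-needled mice had 9.77 and 9.99, MPTP mice 9.80 and 9.70, and controls 9.26 and 9.41. Both acupoint arrays lay above all 6 others, and both controls lay below all 6 arrays of MPTP-injected mice. The levels of hip-needled and MPTP mice overlapped. The group means were 10.50 ± 0.07 in acupoint, 9.88 ± 0.15 in hip-needled, 9.75 ± 0.06 in MPTP and 9.33 ± 0.10 in control mice (SD, n = 2 each).

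Zic2 was likewise highest in acupoint mice and lowest in controls. It stood at 8.74 and 8.84 in acupoint mice, 7.93 and 8.26 in hip-needled mice, 8.01 and 8.19 in MPTP mice, and 7.69 and 7.76 in controls. Again the acupoint arrays were above all others and the controls below all others, and MPTP mice lay between the values of the hip-needled mice. The means were 8.79 ± 0.07, 8.09 ± 0.23, 8.10 ± 0.12 and 7.72 ± 0.05 in acupoint, hip-needled, MPTP and control mice (SD, n = 2 each). Only 142 of 15791 tested probe sets (0.899%) had both acupoint arrays above the other 4 MPTP-injected arrays and these 4 above both controls, and Zic1 and Zic2 were among them. This order contains the contrast on which the genes were selected, so nothing is read from the share.

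Zic4 was less even. Its levels were 6.74 and 7.05 in acupoint mice, 6.57 and 6.34 in hip-needled mice, 6.86 and 6.07 in MPTP mice, and 5.90 and 6.18 in controls. MPTP mouse 1 lay between the acupoint arrays and MPTP mouse 2 between the controls, so the MPTP group overlapped with every other group. The SD between its 2 mice was 0.56, against 0.06 for Zic1. Acupoint, hip-needled and control mice averaged 6.90 ± 0.22, 6.45 ± 0.16 and 6.04 ± 0.19 (SD, n = 2 each) and did not overlap with each other. MPTP mice averaged 6.46 ± 0.56.

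**Figure D1:**
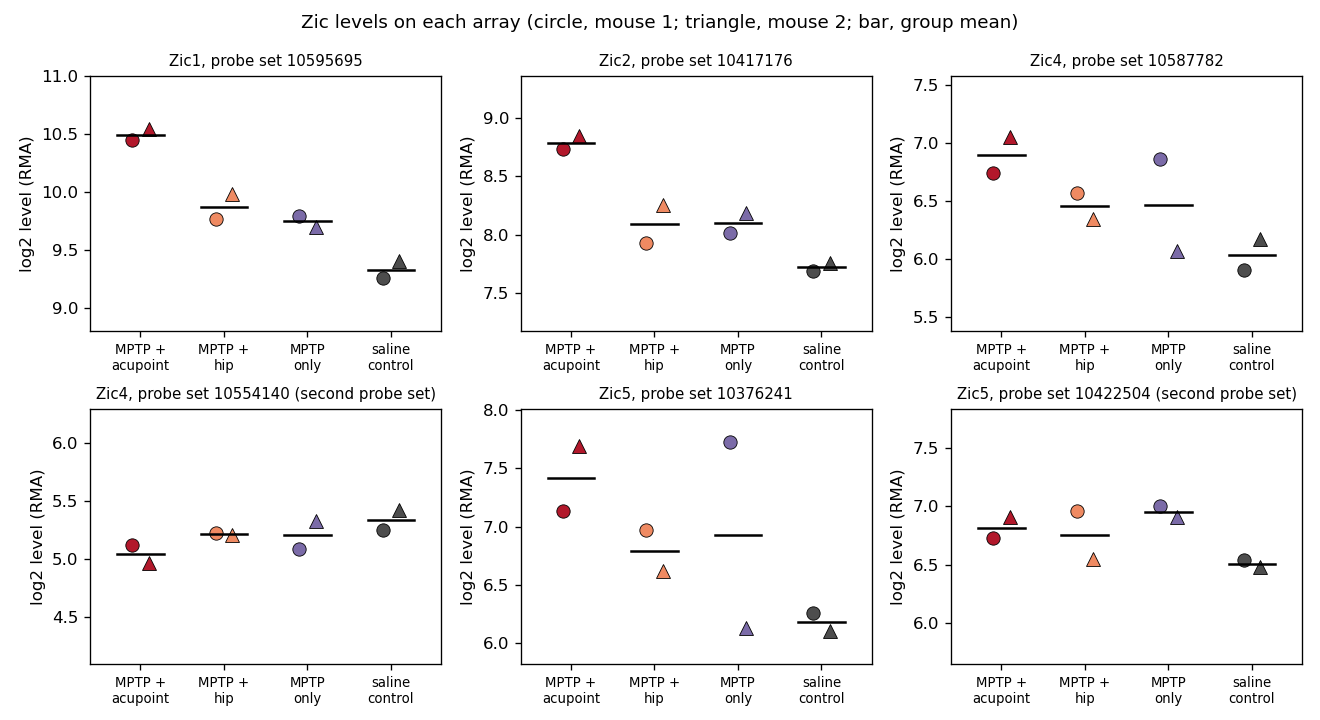
Log2 level (RMA) of 6 Zic probe sets on each array, with groups from left to right acupoint, hip-needled, MPTP only and saline control. Circles are mouse 1, triangles mouse 2 and bars group means, each panel spans the same height, and Zic1 and Zic2 show 2 acupoint arrays above and 2 control arrays below the other 4.

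A second probe set annotated to Zic4 (10554140) had levels of 5.12 and 4.97 in acupoint mice, 5.23 and 5.21 in hip-needled mice, 5.09 and 5.33 in MPTP mice, and 5.26 and 5.42 in controls. It ran the other way, with acupoint mice 0.29 below controls on the log2 scale. All 8 values were under the filter level of 5.63, so this probe set was not tested. The probe sets of Zic4 therefore disagree, and the Zic4 values below are those of the brighter one.

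Zic5, the neighbour of Zic2, is a family member that the selection did not use. Its brighter probe set (10376241) stood at 7.14 and 7.70 in acupoint mice, 6.97 and 6.62 in hip-needled mice, 7.73 and 6.13 in MPTP mice, and 6.25 and 6.10 in controls. The acupoint and hip-needled arrays were above the controls, and the MPTP mice were split as they were for Zic4, with mouse 1 high and mouse 2 among the controls. Acupoint minus control was 1.24 ± 0.49 (SE), with a 95% interval of 0.06 to 2.43, and limma over all 8 arrays gave an adjusted p of 0.854. The second Zic5 probe set (10422504) was 0.31 ± 0.17 higher in acupoint mice than in controls. There MPTP mice had the highest mean, 6.95, against 6.51 in controls. The probe sets of Zic5 thus differ in which group is highest. Whether the probe sets of Zic4 and Zic5 match the genes they are annotated to was not checked.

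Acupoint and MPTP mice were compared to ask what needling at GB34 and LR3 adds to the toxin. Zic1 differed by 0.75 ± 0.14 (SE), a 1.68-fold difference, and Zic2 by 0.69 ± 0.16, or 1.62-fold. Zic4 differed by 0.43 ± 0.28, with overlapping groups. The groups did not overlap, acupoint higher, in 2 of 3 genes and in 14.5% of all tested probe sets. By limma 0% of probe sets passed an adjusted p of 0.05, and 216 had an unadjusted p under 0.05. These are the values that selected the genes. Without the 2 arrays that stood apart the differences were 0.79, 0.61 and 0.83, so that Zic4 moved most, with its high MPTP mouse left out. Without MPTP mouse 2 instead, the Zic4 difference was 0.04.

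Hip-needled and control mice share no array with the selecting contrast. The spread in the fit, however, pools all 4 groups, the acupoint and MPTP pairs of that contrast included. All 3 genes were higher in hip-needled mice and did not overlap with controls, by 0.54 ± 0.14 for Zic1, 0.37 ± 0.16 for Zic2 and 0.41 ± 0.28 for Zic4 (SE). Of all tested probe sets, 25.5% were higher without overlap in this comparison, and 5.07% had a difference at least as large as that of Zic1, 12.4% as that of Zic2 and 9.89% as that of Zic4. None of the 3 genes passed over all probe sets (adjusted p = 0.705 for each, limma with Benjamini-Hochberg adjustment). The test called 0% of probe sets. An unadjusted p under 0.05 was found for 770 of 15791, about the number that this threshold gives by itself. Zic1 was among them (unadjusted p = 0.00725, limma). Its SE was 0.16 when only hip-needled and control mice were fitted (adjusted p = 0.618, limma). In the 6 arrays, with 1 hip-needled array, the differences were 0.65, 0.53 and 0.30. The Zic2 difference was 0.21 without hip-needled mouse 2.

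MPTP alone against saline asks for the effect of the toxin, and shares the MPTP arrays with the selecting contrast. Zic1 was 0.42 ± 0.14 higher in MPTP mice and Zic2 0.38 ± 0.16 higher (SE), both without overlap. Zic4 was 0.43 ± 0.28 higher with overlap. The 2 of 3 genes without overlap stand beside 18.2% of all tested probe sets. None passed (adjusted p = 0.714 for each, limma), 0% of probe sets were called, and 836 had an unadjusted p under 0.05. Without MPTP mouse 1 the Zic4 difference was 0.03, and without MPTP mouse 2 it was 0.82, so the Zic4 value is set by which MPTP mouse is counted.

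Hip-needled and MPTP mice overlapped in all 3 genes. Zic1 differed by 0.13 (95% interval -0.21 to 0.47), Zic2 by -0.00 (-0.39 to 0.38) and Zic4 by -0.01 (-0.68 to 0.66). Of all tested probe sets, 5.67% were higher without overlap. The adjusted p of the 3 genes was 1.00 by limma, which called 7 probe sets (0.0443%). These intervals do not show that the groups are alike, and that of Zic4 is the widest.

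Needling at acupoints was then set against needling at the hips, which keeps the toxin and the handling the same. Acupoint mice were higher by 0.62 ± 0.14 for Zic1, 0.70 ± 0.16 for Zic2 and 0.44 ± 0.28 for Zic4 (SE). The groups did not overlap in 3 of 3 genes and in 13.8% of all probe sets, acupoint higher. A difference at least as large was found in 2.44% of probe sets for Zic1, 1.61% for Zic2 and 6.11% for Zic4. None passed (adjusted p = 0.893 for each, limma), 0% of probe sets were called, and 299 had an unadjusted p under 0.05. The acupoint arrays are those of the selecting contrast, and the 6-array differences were 0.51, 0.54 and 0.55.

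**Figure D2:**
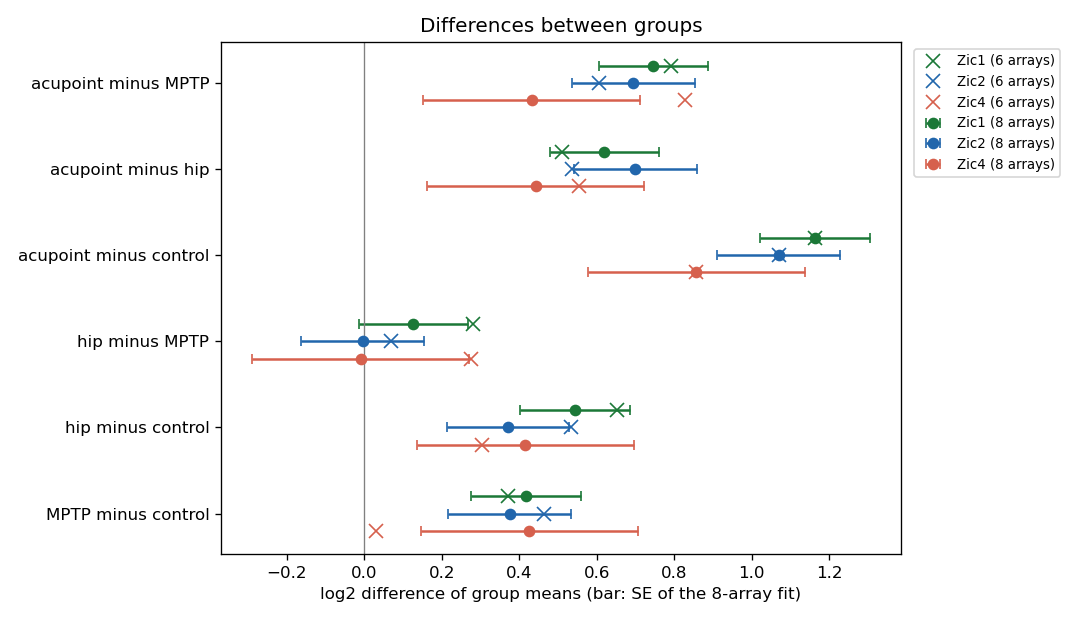
Log2 differences of group means for Zic1, Zic2 and Zic4 in 6 comparisons. Dots with bars are the 8-array fit with its SE and crosses the 6-array values; the largest are acupoint minus control, at 1.16, 1.07 and 0.86, and hip minus MPTP lies near 0 with 8 arrays.

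The widest differences were those of acupoint mice from controls. Zic1 was 1.16 ± 0.14 higher (2.24-fold), Zic2 1.07 ± 0.16 higher (2.10-fold) and Zic4 0.86 ± 0.28 higher (1.81-fold; log2 difference with SE). The groups did not overlap in any of the 3 genes, which was also so, acupoint higher, in 30.4% of all tested probe sets. A difference at least as large was found in 43 of 15791 probe sets (0.272%) for Zic1 and in 0.747% for Zic4. These shares use the acupoint arrays of the selecting contrast, so nothing is read from them. Over all 8 arrays none passed, with adjusted p of 0.155, 0.187 and 0.664 by limma. That fit called 0% of probe sets, and 888 had an unadjusted p under 0.05.

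Without the 2 arrays that stood apart, limma passed all 3 genes in this comparison, with adjusted p of 0.00378 for Zic1, 0.00378 for Zic2 and 0.0207 for Zic4. The brighter Zic5 probe set passed as well (adjusted p = 0.0159), and the second did not (0.0852). The log2 differences are unchanged, because the arrays left out belong to neither group. Only the spread estimate differs, which then rests on the 2 acupoint and 2 control mice. In that fit 5.33% of probe sets passed as higher. The pass therefore depends on the choice of arrays, and it shares the acupoint arrays with the selecting contrast.

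Set against controls as a whole, the 6 MPTP-injected mice were higher by 0.71 ± 0.12 for Zic1, 0.61 ± 0.13 for Zic2 and 0.57 ± 0.23 for Zic4 (log2 difference of the mean of the 3 group means, with SE). This comparison was added after the values were seen. All 6 MPTP-injected arrays lay above both controls for Zic1 and Zic2, as for 10.3% of tested probe sets, but not for Zic4. None passed over 8 arrays (adjusted p = 0.196, 0.301 and 0.689, limma, with 0% called and 1116 probe sets at an unadjusted p under 0.05). In the 6 arrays Zic1 (0.73, adjusted p = 0.0104) and Zic2 (0.69, 0.00958) passed by limma and Zic4 (0.40, 0.116) did not, where 3.41% of probe sets passed as higher.

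**Figure D3:**
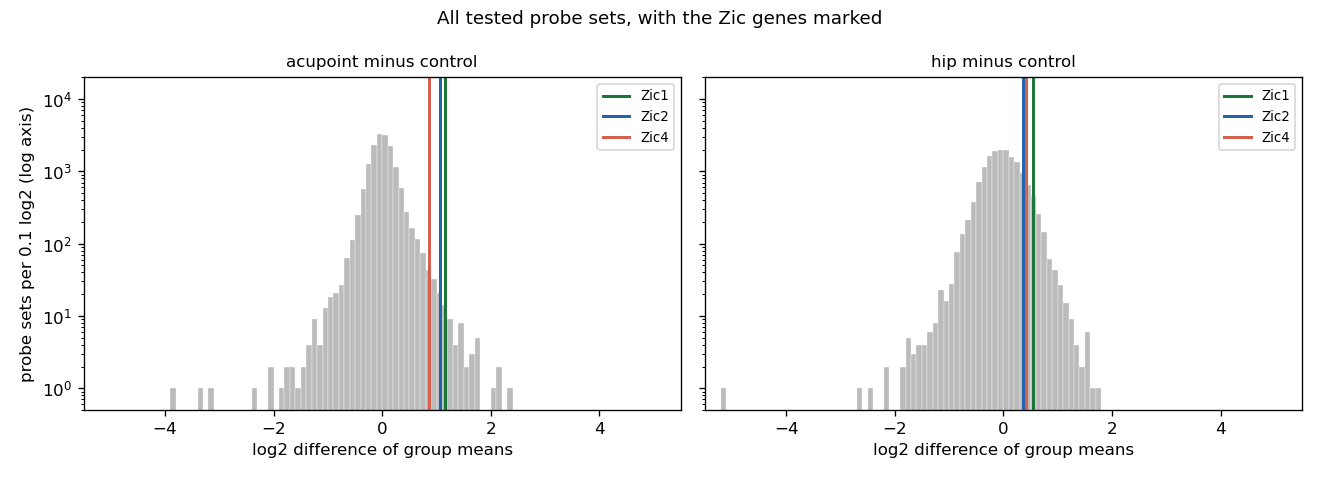
Number of tested probe sets (log axis) by log2 difference of group means, acupoint minus control at left and hip-needled minus control at right. Vertical lines mark the 3 Zic genes, which lie in the upper tail at left (0.86 to 1.16) and nearer the bulk at right (0.37 to 0.54).

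The genes resembled each other to different degrees. Over the 8 arrays the levels of Zic1 and Zic2 had a Pearson r of 0.973, and Zic1 was the gene most like Zic2 among 13523 tested genes, while Zic2 ranked 4 for Zic1. Zic4 had an r of 0.810 to its neighbour Zic1 (rank 232 of 13523 for Zic4) and 0.691 to Zic2. Zic5, on another chromosome, is given here by its brighter probe set, whose match to the gene was not checked. Its r to Zic4 was 0.954 (rank 5 for Zic4). It had an r of 0.697 to Zic1 and 0.572 to its own neighbour Zic2. In the 6 arrays these values lay closer together. Zic4 then had an r of 0.944 to Zic1 and 0.959 to Zic5 (rank 40), and Zic2 and Zic5 had 0.899. Zic1 ranked 9 for Zic2 there, and Zic2 ranked 10 for Zic1. Both genes were selected on acupoint against MPTP in these arrays. A shared pattern is thus partly built in, and nothing is read from their r or ranks. These correlations describe 8 arrays in 4 groups of 2 that were normalized together.

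Besides Zic2, the genes most like Zic1 were Klhl3 (r = 0.994), an adaptor of a cullin ubiquitin ligase, the helicase gene Dhx32 (0.990), the kinase anchor gene Akap8 (0.980) and Mgll (0.972), which breaks down the endocannabinoid 2-AG. Klhl3 also ranked first in the 6 arrays (0.999). Over 8 arrays its mean level was 7.31 in acupoint, 7.05 in hip-needled and 7.01 in MPTP mice, and 6.80 in controls. Pearson r takes no account of how far a gene moves. Dhx32 averaged 8.25 in acupoint mice and 7.99 in controls, and Akap8 8.92 and 8.78. After Zic1, those most like Zic2 were Snora21, a small nucleolar RNA (0.973), Reps2 (0.972), the clathrin adaptor subunit gene Ap2a2 (0.971) and Dhx32 (0.968). For Zic4 they were the potassium channel gene Kcna4 (0.970), the syntrophin gene Sntb1 (0.966) and the calcium-binding protein gene Necab1 (0.958). Cttnbp2 (0.958) and the brighter Zic5 probe set followed.

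The families and pathways around Zic factors were described from gene lists. Of 7 other Zic and Gli type factors tested, 2 were higher and 5 lower in acupoint mice than in controls, with a median log2 difference of -0.11, against -0.00 over all tested probe sets. The brighter Zic5 probe set, at 1.24, stood apart from the other genes, and the second Zic5 probe set was at 0.31. The other genes lay between -0.21 (Glis2) and 0.23 (Glis3), with Gli3, the main repressor of Hedgehog targets, at -0.11. None passed over 8 arrays. In the 6 arrays the brighter Zic5 probe set alone passed, and the second did not, where 5.33% of all tested probe sets passed as higher. Hedgehog pathway genes were spread around 0, with 6 of 12 tested higher, 6 lower and a median of 0.00. Ptch1, the Hedgehog receptor and a target gene of the pathway, differed by 0.01, the Hedgehog-binding inhibitor gene Hhip by 0.27, the co-receptor gene Gas1 by -0.26 and the ligand release gene Disp1 by -0.15. None of the 12 passed with 8 or 6 arrays.

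Among 13 tested genes of the dorsal midline BMP and Wnt signals, which pattern the tissue where Zic genes are first switched on, 5 were higher and 8 lower in acupoint mice than in controls (median -0.07), and none passed with 8 or 6 arrays. The homeobox gene Msx1 differed most, by 0.71, and the ligand genes Bmp6 and Bmp2 by 0.23 and 0.09, with the Wnt agonist gene Rspo3 at 0.12. Of 7 genes with a reported link to Zic factors, 4 were bright enough to test, and all 4 were lower (median -0.19). Ephb1, a guidance receptor that Zic2 switches on in mouse retinal axons, stood at 7.43 and 7.43 in acupoint mice, against 7.93 and 7.83 in controls. Its difference of -0.45 ± 0.15 (SE) passed in the 6 arrays only (adjusted p = 0.0216, limma), where 3.31% of probe sets passed as lower. The dopamine receptor gene Drd1 (-0.29), the inhibitor gene Mdfi (-0.10) and the lipid carrier gene Apoe (-0.08) did not pass.

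As a list, markers of thalamic neurons were, like Zic1 and Zic2, lowest in the 2 control arrays. Zic4 was not, since MPTP mouse 2 (6.07) lay between the controls (5.90 and 6.18). All 15 thalamic projection neuron genes were higher in acupoint mice than in controls, with a median log2 difference of 0.83, and 14 of the 15 passed in the 6 arrays (0 over 8 arrays), where 5.33% of all tested probe sets passed as higher. Vav3, a guanine nucleotide exchange factor, differed by 1.40 and Prkcd by 1.07, with Plekhg1 at 1.27 and Synpo2 at 1.04. The mean deviation of this list from the 8-array mean was 0.34 and 0.29 in acupoint, 0.24 and 0.06 in hip-needled, 0.09 and 0.05 in MPTP mice, and -0.60 and -0.47 in controls. Those of Zic1 were 0.59 and 0.68, -0.10 and 0.12, -0.07 and -0.16, and -0.60 and -0.46 in the same order. Controls were lowest and acupoint mice highest in both. This list, like the others, was chosen with earlier results of these data known, so its counts are a description. The part of thalamic neuron content in the Zic differences was not tested.

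Dopaminergic neuron genes, a mark of the ventral midbrain beside the thalamus, ran the other way. Of 9 tested, 8 were lower in acupoint mice than in controls (median -0.71), and 6 passed as lower in the 6 arrays, against 3.31% of all tested probe sets. Their mean deviation was -0.59 and -0.69 in acupoint, -0.34 and -0.18 in hip-needled, -0.54 and 0.56 in MPTP mice, and 0.97 and 0.80 in controls. Slc6a3, the dopamine transporter, averaged 6.09 in acupoint mice and 9.89 in controls, and Th, which makes the dopamine precursor L-DOPA, 6.09 and 9.22, with Slc18a2 and Ddc lower as well (5.70 against 9.09 and 7.14 against 8.78). Acupoint mice had received MPTP, which kills dopamine neurons, and controls had not. Loss to the toxin and a difference in the tissue taken cannot be told apart here. MPTP mouse 2 had the highest dopaminergic list value of the 6 MPTP-injected mice. It was also the lowest of them in Zic1 and Zic4, but not in Zic2, where it stood at 8.19, above MPTP mouse 1 and hip-needled mouse 1. Pretectal and tectal genes, of which 4 of 8 were bright enough to test, were lower in 3 of 4 (median -0.48), with 2 past the test in the 6 arrays. Gata3 averaged 6.00 in acupoint mice and 7.09 in controls, Sox14 6.11 and 6.73, and Pax7 6.15 and 6.48, while Otx2, also a choroid plexus gene, averaged 8.00 and 7.26. The part of these 2 lists in the Zic values was not tested.

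The habenula and the ependyma lie near the midline, as some Zic-expressing cells do. Of 11 habenula genes, 9 were higher in acupoint mice than in controls (median 0.52), 4 of them past the test in the 6 arrays, against 5.33% of all tested probe sets. The receptor gene Gpr151 averaged 7.53 in acupoint mice and 5.17 in controls, and the nicotinic subunit genes Chrnb4 and Chrna3 differed by 0.65 and 0.78, against -1.24 for the peptide gene Tac1. The list deviated by 0.05 and 0.63 in acupoint, -0.33 and -0.30 in hip-needled, 0.59 and -0.39 in MPTP mice and -0.12 in both controls. MPTP mouse 1 was thus high and MPTP mouse 2 low in habenula genes, as in Zic4 and the brighter Zic5 probe set. Zic1, Zic2 and the second Zic5 probe set differed less between the 2 mice. The 6 tested ependymal genes were higher in 6 of 6 (median 0.54), with Tmem212 at 0.91, Dynlrb2 at 0.76, Rsph1 at 0.51 and Ccdc153 at 0.33, and 2 passed in the 6 arrays. Midline thalamus genes were mixed, with 4 of 8 higher and a median of -0.02. In the 6 arrays 2 passed as higher and 1 as lower, against 5.33% and 3.31% of all tested probe sets. Necab1 was 0.90 and Calb1 0.38 higher, and Dlk1 and Drd2 were at -1.60 and -0.73.

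Lists for other cell types had other orders over the arrays than the Zic genes, and their part in the Zic values was not tested. Of 9 cerebellar granule cell markers, 3 were too dim to test, among them Gabra6 (mean 3.80), which defines these cells. The mean deviation of the other 6 stayed within -0.15 and 0.10 on all 8 arrays. In acupoint mice against controls Neurod1 was at 0.80, Grin2c at 0.52, Pax6 at -0.13 and Barhl1 at -0.52. With 6 arrays 1 gene passed as higher and 1 as lower, against 5.33% and 3.31% of all tested probe sets. Meningeal fibroblast genes, from cells known to express Zic genes, were lower in 8 of 10 (median -0.26). In the 6-array test 4 passed as lower, against 3.31% of all tested probe sets. Slc6a13 and Aldh1a2 averaged 6.60 and 6.24 in acupoint mice, against 7.43 and 7.08 in controls. Igf2 and Slc6a20a differed by 0.09 and -0.31. Pericyte and smooth muscle genes were higher in 5 of 9 (median 0.02), and 3 passed as lower in the 6 arrays, against the same 3.31%. Acta2, Vtn, Tagln and Abcc9 differed by -0.65, -0.49, -0.42 and 0.25. Choroid plexus genes were higher in 11 of 11 (median 1.53, 9 past the 6-array test, against 5.33% of all tested probe sets), as with Kcnj13 (2.18), Kl (2.03), Clic6 (2.14) and Ttr (1.29). In hip-needled mice, however, all 11 were below control (median -0.72), where Zic1, Zic2 and Zic4 were above control.

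**Figure D4:**
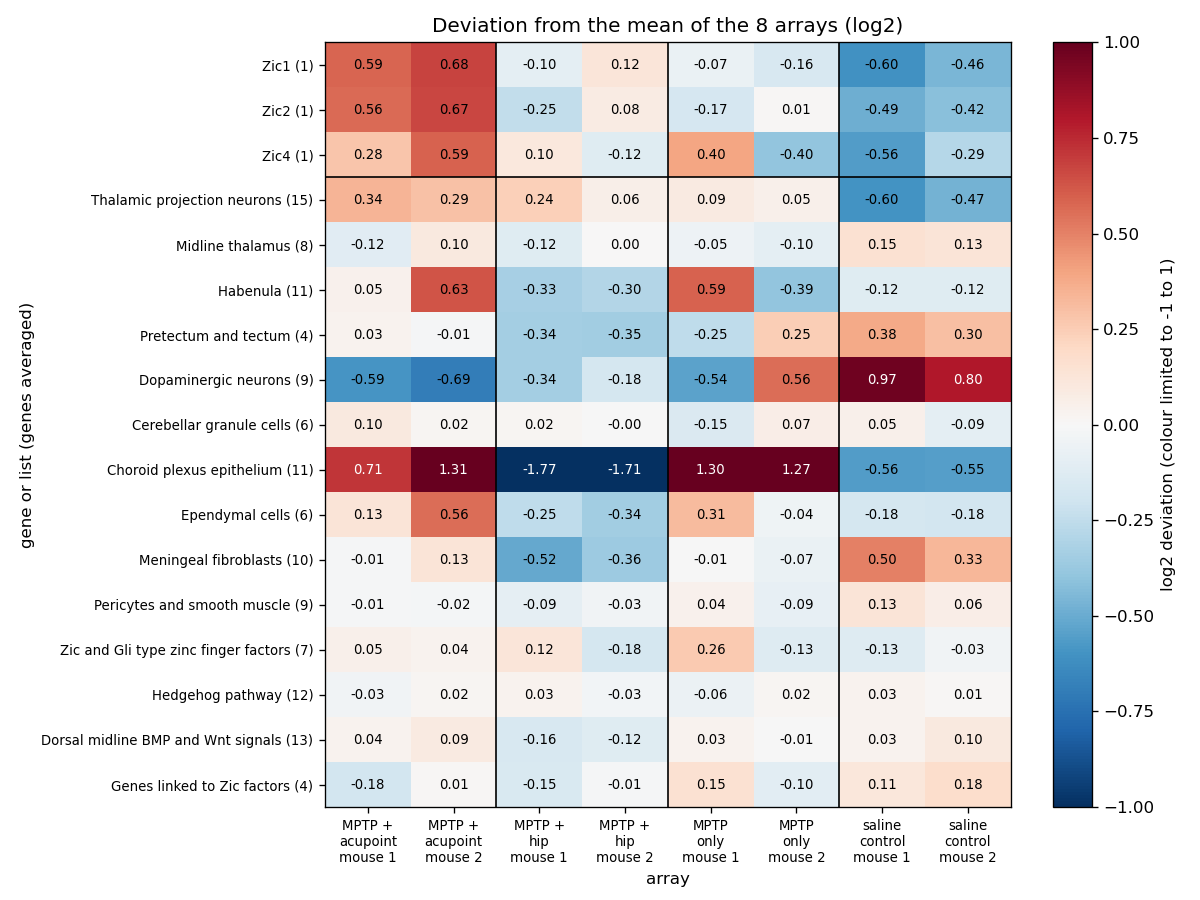
Mean log2 deviation from the 8-array mean for Zic1, Zic2, Zic4 and each gene list (number of tested genes in brackets), 1 column per array with acupoint mice at left and controls at right. Red is above and blue below the mean, and the thalamic neuron row is lowest in the same 2 control arrays (-0.60 and -0.47) as Zic1.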

How the data were processed

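RNA of 8 mice, 300 ng each, was labelled for Affymetrix whole-transcript arrays. The deposited values are log2 levels per probe set, made by the authors with Affymetrix Expression Console and RMA, per the submitters' processing notes. No version of either is given in the labels. RMA corrects background, normalizes between arrays and summarizes probes, which hides any shift shared by all genes.

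GEO's platform annotation gave the gene symbols. Of 35557, 21789 had 1 symbol, 1621 several and 12147 none here. The 40% of lowest mean level and unnamed ones were left out, which left 15791; Zic1, Zic2 and Zic4 passed on their mean over all 8 arrays. R 4.3.3 and limma 3.58.1 fitted a mean per group to all 8 arrays (4 residual and 2.53 prior degrees of freedom). Tests were two-sided, with Benjamini-Hochberg adjustment over all tested probe sets and a threshold of 0.05. The fit was tested on simulated data.

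The members, gene lists and alternatives were chosen with earlier results of these data known. Named were the Zic genes, up to 4 genes per list with the widest range of group means, and the 5 genes most correlated with each member. Slc17a6 and Gabra6 were chosen after their values were seen. Promoters came from RefSeq. The alternatives were further quantile or cyclic loess normalization, other filters, an intensity trend, a fit of the compared pair alone, a block for mouse number, and leaving out mice.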

Additional observations from a re-analysis of the deposited data

How the results depend on the processing

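Of 285 recomputed differences of Zic1, Zic2 and Zic4, 269 kept their direction and, where tested, their side of the threshold. Much of this count is fixed in advance. Other filters, the intensity trend, the pair-only fit, the mouse block and leaving out mice of neither group cannot change a difference. Such settings alter only its spread or its adjustment. Acupoint minus control passed the test when only these 2 groups were fitted, as it did without the 2 arrays that stood apart, since both fits take the spread from the same 4 arrays (1.16, 1.07 and 0.86 for Zic1, Zic2 and Zic4; adjusted p = 0.00378, 0.00378 and 0.0207, limma, against 0.0911 to 1.00, 0.110 to 1.00 and 0.209 to 1.00 without single mice). The number of probe sets called was then 1365, against 0 over 8 arrays. All MPTP-injected minus control changed its call for Zic1 (0.73) and Zic2 (0.69) in the 6 arrays, where the spread rests on the same 4 arrays. In those arrays 57 were called for MPTP and 52 for hip-needled mice against control, 21 for acupoint against hip, 3 for acupoint against MPTP (0 each over 8 arrays) and 23 for hip against MPTP (7 over 8 arrays).

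Hip minus MPTP, near 0, changed sign for Zic4 with quantile normalization (0.0141), cyclic loess (0.0105) and the 6 arrays (0.275), and for Zic2 with the 6 arrays (0.0695). Without single mice it ranged from -0.17 to 0.16 for Zic2 and -0.41 to 0.39 for Zic4. Acupoint minus MPTP for Zic4 ranged from 0.04 without MPTP mouse 2 to 0.83 without MPTP mouse 1. The filter at the dimmest 60% removed Zic4. With the mouse number as a replicate block, Zic1 in acupoint minus control stayed at 1.16 with an adjusted p of 0.178 (limma) and no call of the 3 genes changed. Deviations of same-numbered mice correlated at -0.28 to 0.82, so the numbers were not taken as pairs. The number of arrays limits all of these values.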
